A study of Mus musculus with 6 samples.

Results

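The cells described here were those of the aortic root that lay outside the traced smooth muscle cell (SMC) lineage, in Marfan mice and in littermate controls. All cell barcodes of these 2 lineage-negative libraries entered if they had at least 1000 unique molecular identifiers (UMIs, counted transcript molecules) and at least 500 genes, and if mitochondrial (mt-) genes gave at most 10% of their UMIs. This gave 11615 cells of the 41759 in the 6 libraries of the series, 7105 from Marfan and 4510 from control roots. The Marfan mice carried the C1041G missense allele of Fbn1 on 1 chromosome (C1041G/+), and the controls were littermates without it. Both groups had the wild type Klf4 allele, and all animals were male and 24 weeks old. The roots of 4 animals per group were combined before digestion, and cells negative for tdTomato, the fluorescent mark of the SMC lineage, were sorted and captured with the Chromium 3' version 3 chemistry. A further lineage-negative library came from Marfan mice with a floxed Klf4 allele, in a series built around SMC-specific deletion of Klf4. The labels name neither the driver of the lineage mark nor the promoter of the recombinase. Animals cannot be told apart within a library, so each group was 1 sample with no replicate. Every ratio therefore compares 2 libraries, its interval covers counting error only, and no p-value was possible.

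Fibrillin-1, the product of Fbn1, assembles into the microfibrils that carry elastin and hold latent TGF-beta in the vessel wall, and mutations in it cause Marfan syndrome, in which the aortic root dilates. Outside the SMC layer, the root holds adventitial fibroblasts, valve cells, endothelium, mesothelium and immune cells. Tyrobp encodes DAP12, an adaptor of activating receptors on myeloid cells. Pecam1 encodes the endothelial junction protein CD31, Dcn the collagen-binding proteoglycan decorin of fibroblasts, and Msln mesothelin of the mesothelium.

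The Marfan library held 79583816 UMIs in the cells kept, with a median of 10225 UMIs and 3082 genes per cell, and the control library 46515200 UMIs, with medians of 9968.5 and 3130. The reporter transcript stood at 4.98 counts per 1000000 UMIs (CPM) in Marfan and 5.42 CPM in control cells, against 413 and 342 CPM in the lineage-positive libraries of the same genotypes. Myh11, the smooth muscle myosin heavy chain, stood at 53.0 CPM in Marfan against 47.3 CPM in control lineage-negative cells, so the label fits the sort, with a small SMC remainder. The 2 libraries shared 13 barcodes. Fewer cells of a kind and less RNA per cell cannot be told apart in summed UMIs.

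Tyrobp and Msln were higher in the Marfan library, Dcn was lower, and Pecam1 was slightly higher in summed UMIs. Tyrobp (chr7:30413760-30417585, plus strand of mm10, as are all positions given here) had 39291 UMIs in Marfan cells, or 494 CPM, against 10264 UMIs and 221 CPM in control cells. The ratio was 2.24, a log2 ratio of 1.16 (95% interval 1.13 to 1.19). Of the Tyrobp UMIs, 81.8% in Marfan and 80.8% in control came from the cells named macrophage or monocyte-like below. Msln (chr17:25748613-25754378, minus strand) had 1181 UMIs and 14.8 CPM in Marfan against 395 UMIs and 8.49 CPM in control cells, a log2 ratio of 0.81 (0.64 to 0.97). In both libraries 98.5% of its UMIs lay in mesothelial-like cells. Dcn (chr10:97479609-97518143, plus strand) stood at 10690 CPM in Marfan against 15230 CPM in control cells, a log2 ratio of -0.51 (-0.52 to -0.51). Pecam1 (chr11:106654217-106750628, minus strand) stood at 61.3 CPM in Marfan against 45.6 CPM in control cells, a log2 ratio of 0.43 (0.35 to 0.50), which was under the 1.5-fold mark used throughout.

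The shares of cells with at least 1 UMI of these genes were taken after thinning every cell to 2000 UMIs, which left out 291 Marfan and 162 control cells that had fewer. Tyrobp was found in 24.2% of Marfan cells (exact 95% interval 23.2 to 25.2) and 11.2% of control cells (10.2 to 12.1), a difference of 13.02 percentage points (11.6 to 14.4). In fibroblast-like cells, which should lack it, it was found in 3.04% of Marfan and 1.93% of control cells, at median depths of 11280.5 and 10719 UMIs, so the shares over all cells lay far above that level. Dcn was found in 80.6% of Marfan (79.7 to 81.6) and 92.4% of control cells (91.6 to 93.2), a difference of -11.8 points (-13.03 to -10.58). Its transcripts also reached 31.9% of Marfan and 47.2% of control macrophage or monocyte-like cells, at median depths of 9856.5 and 10518 UMIs, so a Dcn UMI alone does not mark a fibroblast here. Pecam1 was found in 6.18% of Marfan (5.62 to 6.78) and 5.57% of control cells (4.90 to 6.29), and the difference of 0.61 points had an interval that took in 0 (-0.29 to 1.49). Its share among macrophage or monocyte-like cells was 1.13% in Marfan and 0 of 388 cells in control, which by a floor of 3 counts allows up to 0.773%. Msln was found in 0.62% of Marfan (0.44 to 0.83) and 0.30% of control cells (0.16 to 0.51), or 42 and 13 cells, and in no macrophage or monocyte-like cell of either library. Without thinning the shares were 32.6% and 16.9% for Tyrobp, 93.2% and 98.5% for Dcn, 12.6% and 12.7% for Pecam1, and 1.11% and 0.42% for Msln, in Marfan and control cells in that order. The higher share of Tyrobp-positive cells and the lower share of Dcn-positive cells in Marfan were thus present with and without thinning. Shares of 1 library sum to 100%, and the tdTomato gate itself can set them.

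**Figure D1:**
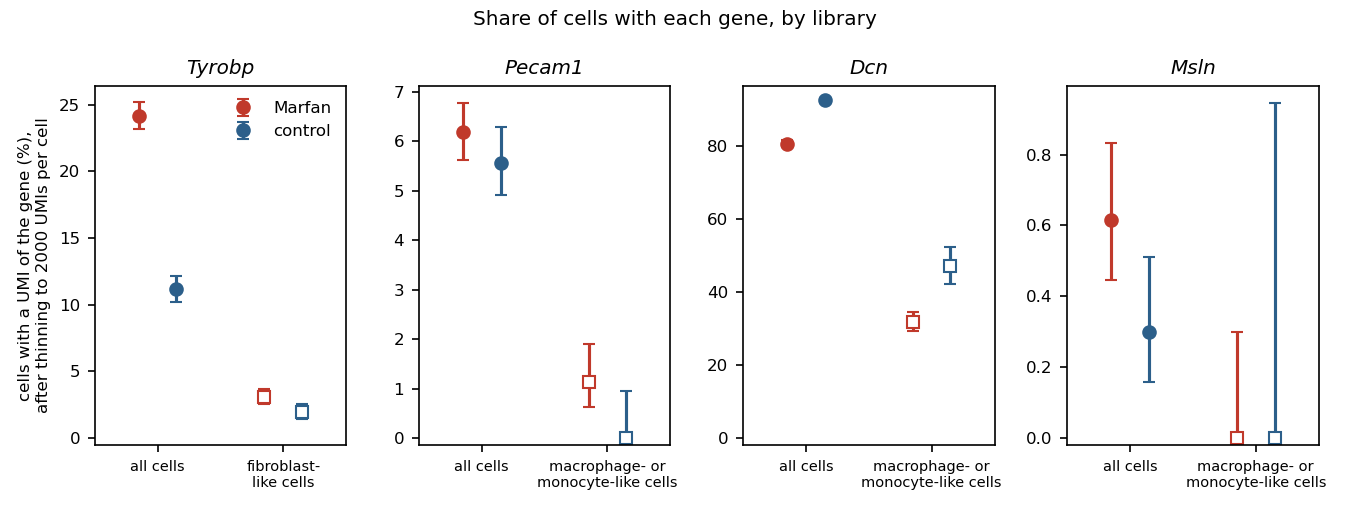
Share of cells (percent, thinned to 2000 UMIs per cell) with at least 1 UMI of Tyrobp, Pecam1, Dcn and Msln, over all cells (circles) and in a class that should lack the gene (open squares), Marfan (red) left of control (blue); bars span exact 95% intervals for counting error, and the scale differs between panels. Tyrobp stood at 24.2% in Marfan against 11.2% in control, Dcn at 80.6% against 92.4%, and the Pecam1 intervals overlapped.

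The cells of both libraries were clustered together into 26 clusters, and a cluster was named only where its markers agreed. Fibroblast-like cells made up 53.3% of Marfan cells (3789) and 60.6% of control cells (2735), a difference of -7.31 points (-9.15 to -5.47), which was -14.5 points at clustering resolution 0.5, -11.7 at resolution 2 and -4.08 with each library clustered alone. Macrophage or monocyte-like cells were 18.1% of Marfan (1283; 17.2 to 19.0) and 8.80% of control cells (397; 7.99 to 9.67), a difference of 9.26 points (8.03 to 10.46), and 6.17 at resolution 0.5. Neutrophil-like cells were 206 of the Marfan cells (2.90%) and 7 of the control cells (0.16%). Their median depth was low, 2437.5 UMIs in Marfan and 4157 in control. Erythroid markers, another blood signal, summed to 57.3 CPM in Marfan against 6.43 CPM in control cells, with all 3 measured at least 1.5-fold higher, and their part in the immune results was not tested. Dendritic-like cells made up 1.52% of Marfan and 0.67% of control cells, mesothelial-like cells 0.94% and 0.31%, and lymphatic endothelial-like cells 2.70% and 1.51%. The named immune classes and the mesothelial and lymphatic classes thus held larger shares of the Marfan library. Mast cell markers, for which no class was named, went the other way. They summed to 25.2 CPM in Marfan against 55.0 CPM in control cells, with all 4 measured at least 1.5-fold lower. Blood endothelial-like cells stood close to each other, at 2.79% of Marfan and 2.62% of control cells, as did SMC-like cells at 2.18% and 1.91%. Valve interstitial or chondrocyte-like cells, the matrix-rich cells of the leaflets and root cartilage, made up 5.18% of Marfan and 6.05% of control cells. Of the rest, 10.4% of Marfan and 17.3% of control cells lay in 6 clusters that stayed unnamed because they had under 50 cells, mixed markers or cell cycle genes in the lead. The main one, led by Gfra2, Dio2 and Hhip, held 407 Marfan and 580 control cells.

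**Figure D2:**
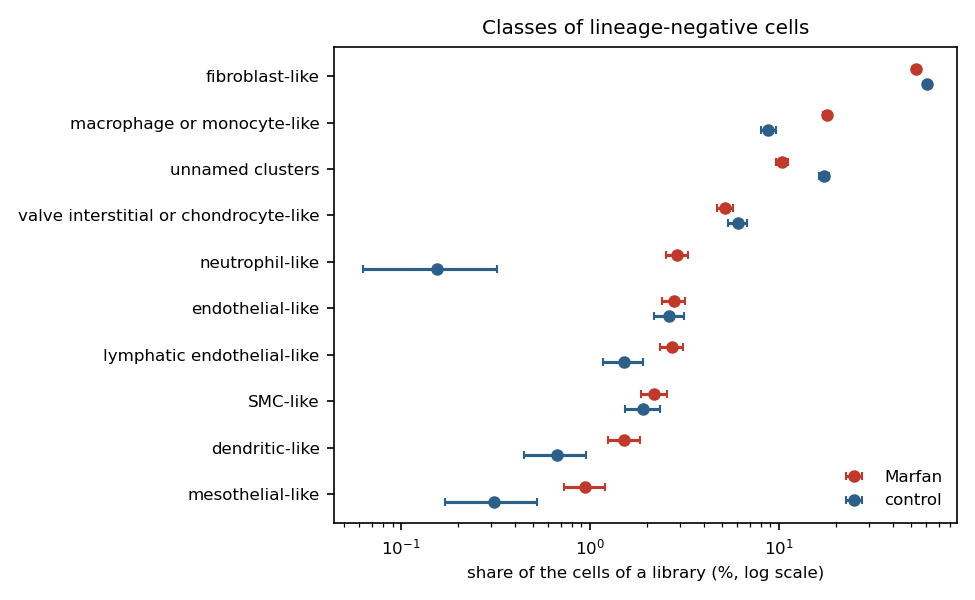
Share of the cells of a library (percent, log axis) in each cell class of the joint clustering, Marfan (red) above control (blue), with exact 95% intervals for counting error. Macrophage or monocyte-like cells held 18.1% of Marfan against 8.80% of control cells and fibroblast-like cells 53.3% against 60.6%.

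A fibroblast-like cluster of 238 cells was found in the Marfan library alone. No control cell fell in it, which by the floor of 3 counts allows a control share of up to 0.067%, and it held 3.35% of Marfan cells but 7.58% of Marfan UMIs, at a median of 22267.5 UMIs per cell. Its leading genes were cytokine and chemokine genes: Il11, Cxcl5, Il6, Csf3, Ccl11, Lif, Timp1, Cxcl14, Cxcl1 and Spp1. A cluster drawn from 1 library may stand for that library and not for a kind of cell. Values without it are therefore given beside the results it carries. A macrophage or monocyte-like cluster led by Arg1, Ly6c2 and Chil3 was likewise almost wholly Marfan, with 208 Marfan cells and 1 control cell.

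Across all cells, 10729 genes had at least 5 CPM in either library. Of these, 590 (5.5%) were at least 1.5-fold higher and 458 (4.27%) at least 1.5-fold lower in Marfan, and the median log2 ratio was -0.09. Scaling by the median of ratios, which sets that median to 0, gave 718 higher and 305 lower. Several of the largest ratios were those of cytokine genes with most of their Marfan UMIs in the 238-cell cluster. Csf3, the granulocyte growth factor G-CSF, had 4561 UMIs in Marfan and 2 in control cells, a log2 ratio of 10.38 (8.53 to 13.43), with 97.8% of its Marfan UMIs in the 238-cell cluster. Il11 (chr7:4772373-4782859, minus strand), a cytokine of the IL-6 family, stood at 214 CPM in Marfan against 1.44 CPM in control cells, a log2 ratio of 7.22 (6.87 to 7.59). Il6 (chr5:30013114-30019981, plus strand) stood at 279 CPM in Marfan against 6.94 CPM in control cells, a log2 ratio of 5.33 (5.17 to 5.49). Without that cluster the log2 ratio was 1.70 for Il11, 1.40 for Il6 and 4.997 for Csf3. The cluster thus held most, but not all, of the excess of these 3 genes.

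Further genes of the same cluster were Cxcl5, a neutrophil chemoattractant, at 193 CPM in Marfan against 4.04 CPM in control cells, and Lif, another member of the IL-6 family, at 40.5 and 2.37 CPM. Without the cluster their log2 ratios dropped to 0.19 for Cxcl5 and 0.57 for Lif, both under the 1.5-fold mark. Ccl11, the eosinophil chemokine eotaxin, stood at 89.4 CPM in Marfan against 6.08 CPM in control cells (log2 ratio 3.88, and 1.24 without the cluster). Cxcl14 stood at 85.5 and 3.76 CPM (4.51, and 2.33 without), Hp, which encodes the haemoglobin-binding protein haptoglobin, at 131 and 3.07 CPM (5.42, and 3.69 without), and the adhesion molecule gene Chl1 at 28.2 and 1.70 CPM (4.05, and 2.69 without). These last 4 stayed at least 1.5-fold higher in Marfan with the cluster left out.

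Another group of the largest ratios belonged to myeloid cells. Arg1, the arginine-degrading enzyme of some macrophages, had 2062 UMIs in Marfan and 3 in control cells, a log2 ratio of 8.65 (7.10 to 10.93), with 90.7% of its UMIs in the cluster it led. Ly6c2, a surface protein of inflammatory monocytes, stood at 44.6 CPM in Marfan against 0.34 CPM in control cells, and Slfn4 at 49.5 and 1.03 CPM. Cxcl3, a chemokine for neutrophils, stood at 28.4 CPM in Marfan against 0.22 CPM in control cells. Cstdc4, of the stefin family of protease inhibitors, had 2896 UMIs in Marfan and 0 in control cells, at least 564-fold higher against a floor of 3 counts for the control library, and 92.3% of its UMIs lay in neutrophil-like cells. Jchain, the joining chain of polymeric antibodies, stood at 22.7 CPM in Marfan against 0.086 CPM in control cells, with 70.7% of its UMIs in the dendritic-like cluster. Ly6c2 and its neighbour Ly6c1, Cstdc4 and its stefin relatives, Lyz1 and Lyz2, Ifit3 and Ifit3b, and Hspa1a and Hspa1b are near-identical copies, so their counts are uncertain.

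Spp1 (chr5:104435118-104441050, plus strand), which encodes osteopontin, a secreted ligand of integrins and CD44, stood at 1846 CPM in Marfan against 145 CPM in control cells, 12.7-fold higher, a log2 ratio of 3.67 (3.64 to 3.71). Its source differed between the libraries. In Marfan cells 81.6% of its UMIs came from fibroblast-like cells, 71.4% from the 238-cell cluster, whereas in control cells 83.4% came from valve interstitial or chondrocyte-like cells. Without the 238-cell cluster the log2 ratio was 1.98. Timp1 (chrX:20870166-20874735, plus strand), an inhibitor of matrix metalloproteinases, stood at 1827 CPM in Marfan against 242 CPM in control cells, a log2 ratio of 2.92, and 0.83 without the cluster.

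The smallest ratios were those of neuroendocrine granule genes. Chga had 0 UMIs in Marfan and 1256 in control cells, at least 716-fold lower against a floor of 3 counts for the Marfan library, and Chgb (chr2:132781278-132795079, plus strand) had 6 and 2150 UMIs. In control cells 96.5% of the Chga and 96.8% of the Chgb UMIs lay in an unnamed cluster of 15 control and 7 Marfan cells, which also held mast cell genes, so these 2 ratios rest on very few cells. Outside that cluster the Chgb log2 ratio was -4.28. Hhip (chr8:79965851-80058006, minus strand), a secreted inhibitor of hedgehog ligands, stood at 5.23 CPM in Marfan against 25.1 CPM in control cells, a log2 ratio of -2.26 (-2.43 to -2.10). Mfap4, a microfibril-associated glycoprotein that binds elastic fibres, stood at 247 CPM in Marfan against 577 CPM in control cells, a log2 ratio of -1.22 (-1.25 to -1.20), and was found in 24.9% of Marfan and 45.2% of control cells after thinning. The unnamed cluster led by Gfra2 held 28.6% of the Hhip UMIs in Marfan and 45.0% in control, more than any other cluster. It made up 5.73% of Marfan and 12.9% of control cells, and its part in the Hhip ratio was not tested. Mfap4 was more spread, with at most 15.6% of its UMIs in any cluster in Marfan and 23.5% in control. Others in this group were Ptgds, a prostaglandin D synthase (11.9 CPM in Marfan against 39.6 CPM in control cells), the prostaglandin F receptor gene Ptgfr (11.1 and 31.8 CPM), the circadian transcription factor gene Hlf (17.9 and 47.3 CPM) and the carboxylesterase gene Ces1d (16.02 and 39.1 CPM). Foxd1, Aspa, Col6a6, Ccdc3 and Coch had log2 ratios between -1.44 and -1.15. Lyz1 and Ccl24, both of macrophages, had log2 ratios of -1.61 and -1.43.

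**Figure D3:**
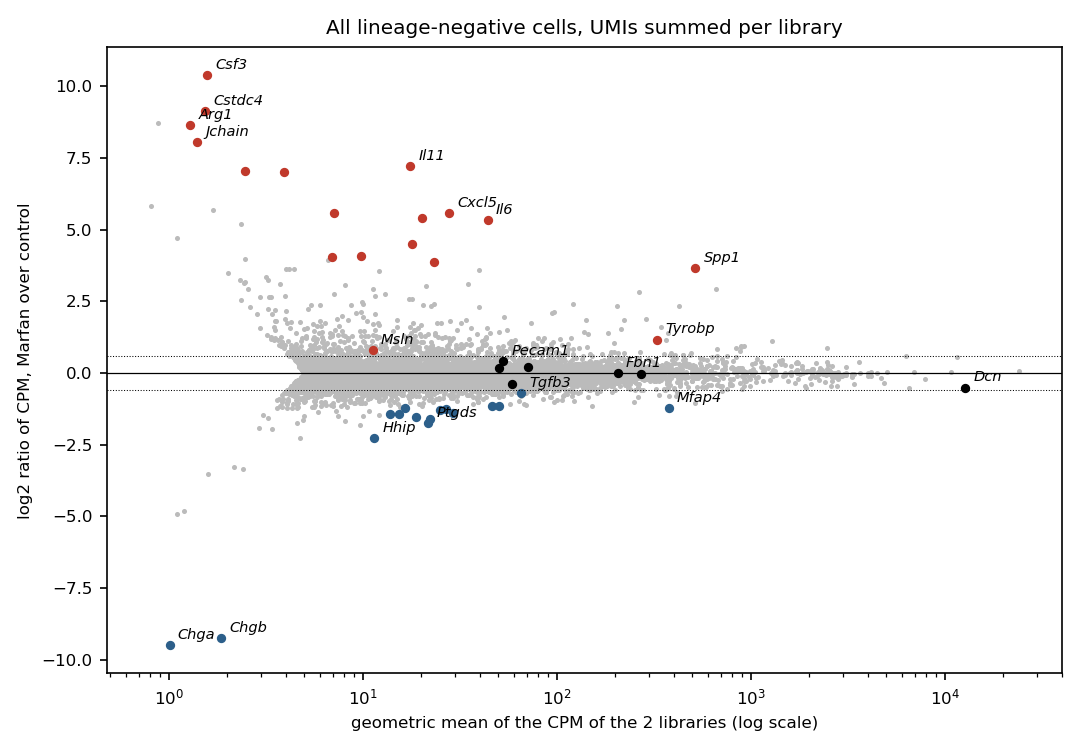
Log2 ratio of CPM, Marfan over control (vertical), against the geometric mean CPM of the libraries (horizontal, log axis) for the 10729 genes with at least 5 CPM in either library; dotted lines mark 1.5-fold, genes with no UMI in a library are drawn at the floor of 3 counts, and coloured points are genes named by rule (red higher, blue lower, black within 1.5-fold). Csf3, Il11, Il6, Arg1 and Spp1 lie at log2 ratios of 10.38, 7.22, 5.33, 8.65 and 3.67, and Chgb, Hhip and Mfap4 lie below the lines.

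Fbn1 (chr2:125300594-125507993, minus strand) itself stood at 206 CPM in Marfan against 205 CPM in control cells, a log2 ratio of 0.01 (-0.03 to 0.04). The allele is a missense one, and 3' counts do not tell the alleles apart. Klf4 (chr4:55527143-55532466, minus strand), a transcription factor linked to SMC state changes, stood at 268 and 277 CPM. Of the TGF-beta ligands, Tgfb1 stood at 76.4 CPM in Marfan against 65.5 CPM in control cells, Tgfb2 at 51.0 and 67.2 CPM, and Tgfb3 at 51.3 and 84.1 CPM. Tgfb3 alone passed 1.5-fold, with a log2 ratio of -0.71 (-0.78 to -0.65). Of 20 measured genes of TGF-beta signalling, 2 were higher in Marfan, among them the activin subunit gene Inhba (109 and 55.6 CPM), and 1 was lower, with a median log2 ratio of -0.15. Without the 238-cell cluster the Inhba log2 ratio was -0.02.

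Gene lists were read against the 5.5% of all genes that were higher, the 4.27% that were lower and the median of -0.09. Of 21 measured genes of immune receptors and signalling, 18 were higher in Marfan and none lower, and the median log2 ratio was 0.98. They included Ccr2, the receptor that draws monocytes to CCL2 (35.6 CPM in Marfan against 11.2 CPM in control cells), the Fc receptor gene Fcgr1 (62.4 and 20.9 CPM), Cd14, a co-receptor for bacterial lipopolysaccharide (299 and 113 CPM), and Fcer1g, the signalling chain that acts beside DAP12 (542 and 247 CPM). All 7 measured genes of MHC class II were higher, with a median of 0.89, among them the invariant chain gene Cd74 at 3381 CPM in Marfan against 1826 CPM in control cells. Of 8 measured of 13 neutrophil genes, 7 were higher, with a median of 2.04, and S100a9 stood at 278 and 52.3 CPM. Lcn2 was among those higher, with 48.6% of its Marfan UMIs in the fibroblast-like 238-cell cluster. The part of that cluster in the Lcn2 ratio was not tested. With at least 4000 UMIs required per cell, the log2 ratio of S100a9 was 1.08 in place of 2.41. Ltf, Camp, Ngp, Mmp8 and Wfdc21 were below 5 CPM in both libraries. Lists of myeloid genes were thus shifted nearly as a whole. The summed macrophage or monocyte markers stood at 7207 CPM in Marfan against 4210 CPM in control cells, with 13 of 16 at least 1.5-fold higher, and their part in these lists was not tested. Without the clusters in which at least 50% of cells held Tyrobp, the log2 ratio of Cd74 was -0.22 and that of H2-Eb1 -0.18. Tyrobp itself stayed more than 1.5-fold higher in Marfan in that setting.

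The genes that mark long-lived resident macrophages did not share this shift. Of 10 measured, none was higher and 1 was lower, Timd4, a receptor for dying cells (5.49 CPM in Marfan against 9.50 CPM in control cells), with a median of -0.31. The mannose receptor gene Mrc1 stood at 144 and 139 CPM. Without thinning, Gas6 was found in 76.9% of Marfan and 84.6% of control cells, and Selenop in 86.6% and 92.3%. Over all cells this list thus also took in UMIs of cells other than macrophages. Of 12 measured genes of lipid-associated macrophages, 3 were higher, Spp1, the lectin gene Lgals3 (269 and 74.1 CPM) and the lipid receptor gene Trem2 (58.8 and 29.8 CPM), while Apoe stood at 7414 and 8488 CPM. Of 16 measured complement genes, 6 were higher in Marfan, the C1q genes C1qa, C1qb and C1qc, C2, Cfb and the anaphylatoxin receptor gene C5ar1, and none was lower.

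Of 21 measured chemokine genes, 15 were higher and 1 lower in Marfan, with a median log2 ratio of 0.84. The monocyte attractants Ccl2 and Ccl7 stood at 958 and 699 CPM in Marfan, against 191 and 99.6 CPM in control cells. Their log2 ratios were 2.33 and 2.81, and 0.94 and 1.03 without the 238-cell cluster. Cxcl9, a T cell attractant under interferon-gamma control, stood at 103 CPM in Marfan against 11.9 CPM in control cells, with 81.3% of its UMIs in a macrophage or monocyte-like cluster, cluster 4. Of 15 measured cytokine and NF-kB target genes, 10 were higher and none lower, with a median of 1.26. Il1b stood at 421 CPM in Marfan against 118 CPM in control cells, and 58.5% of its Marfan UMIs lay in macrophage or monocyte-like and 31.0% in neutrophil-like cells. Il33, an alarmin of stromal cells, stood at 246 and 147 CPM, but its log2 ratio was -0.19 without the 238-cell cluster. The interferon response did not follow the cytokines over all cells. Of 17 measured genes, 2 were higher and 1 lower, Ifit2 (47.2 CPM in Marfan against 102 CPM in control cells), with a median of 0.18, and none of 9 class I antigen presentation genes passed 1.5-fold (median 0.37).

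None of 22 measured collagen and collagen-processing genes passed 1.5-fold, with a median of 0.10, and Col1a1 and Col3a1 stood at 929 and 1457 CPM in Marfan against 826 and 1213 CPM in control cells. Of 20 elastic fibre and microfibril genes, Lox, the crosslinking enzyme, and Emilin2 were higher, and Mfap4 and the latent TGF-beta binding protein gene Ltbp1 (54.3 CPM in Marfan against 88.7 CPM in control cells) were lower, with a median of -0.21. Lox stood at 77.4 and 45.6 CPM, and its log2 ratio was 0.13 without the 238-cell cluster. Of 10 proteoglycan genes 1 was lower, Ogn (575 and 882 CPM), with a median of -0.39. Lum stood at 1779 and 2339 CPM and Bgn at 2596 and 2878 CPM. Of 14 fibroblast activation genes 3 were higher, Timp1, Tnc and Cthrc1, and 1 was lower (median 0.04). Leaving out the 238-cell cluster, the log2 ratio of Tnc was 1.38 in place of 2.69, and that of Cthrc1 was 0.61 in place of 1.18. Of 23 proteases and inhibitors 10 were higher and none lower (median 0.10), among them the elastin-degrading cathepsin gene Ctss of macrophages (614 CPM in Marfan against 231 CPM in control cells), the urokinase receptor gene Plaur (50.7 and 10.1 CPM) and the collagenase gene Mmp13 (19.7 and 5.14 CPM). Without the 238-cell cluster, the log2 ratio of Mmp13 was 0.92 in place of 1.94.

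Of 17 measured growth factors and binding proteins, 2 were higher and 3 lower in Marfan, with a median of -0.27. Lower were Igfbp3 (87.3 CPM in Marfan against 172 CPM in control cells), Igf1 (294 and 441 CPM) and the PDGF receptor gene Pdgfra (154 and 243 CPM), and Igfbp2 was higher (21.9 and 6.60 CPM). Of 19 endothelial genes 6 were higher (median 0.33), among them Selp, which captures rolling leukocytes (19.1 and 4.49 CPM), Vwf (11.7 and 3.48 CPM) and Edn1 (18.2 and 7.76 CPM). Of the Marfan UMIs of Selp, 54.1% lay in the fibroblast-like 238-cell cluster, and its log2 ratio was 1.08 without it, in place of 2.09. Of 12 mesothelial genes 10 were higher, with a median of 1.02, and Upk3b stood at 31.8 and 16.3 CPM. Mesothelial-like cells numbered 67 in Marfan and 14 in control, and the part of this count in the ratios was not tested. Of 16 chondrogenic and mineralisation genes 6 were higher and 2 lower (median 0.15), among them the bone matrix genes Ibsp (25.9 CPM in Marfan against 1.68 CPM in control cells) and Bglap (480 and 5 UMIs). For Ibsp the log2 ratio was 2.84 without the 238-cell cluster, in place of 3.95. Of 13 contractile genes Cnn1 was higher and Synpo2 lower (median 0.28), and Acta2 stood at 821 and 550 CPM. Of 15 genes of the unfolded protein response 4 were higher, led by Sdf2l1 (123 and 57.1 CPM), with a median of 0.47. Of 8 haem and iron genes 2 were higher and 1 lower, the iron exporter gene Slc40a1 (2.53 and 5.61 CPM). None of 16 oxidative phosphorylation genes passed 1.5-fold (median 0.07). Of 14 glycolysis genes 2 were higher, Slc2a1 and Hk2 (median 0.23), and of 18 immediate early and heat shock genes 1 was higher (median 0.16).

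**Figure D4:**
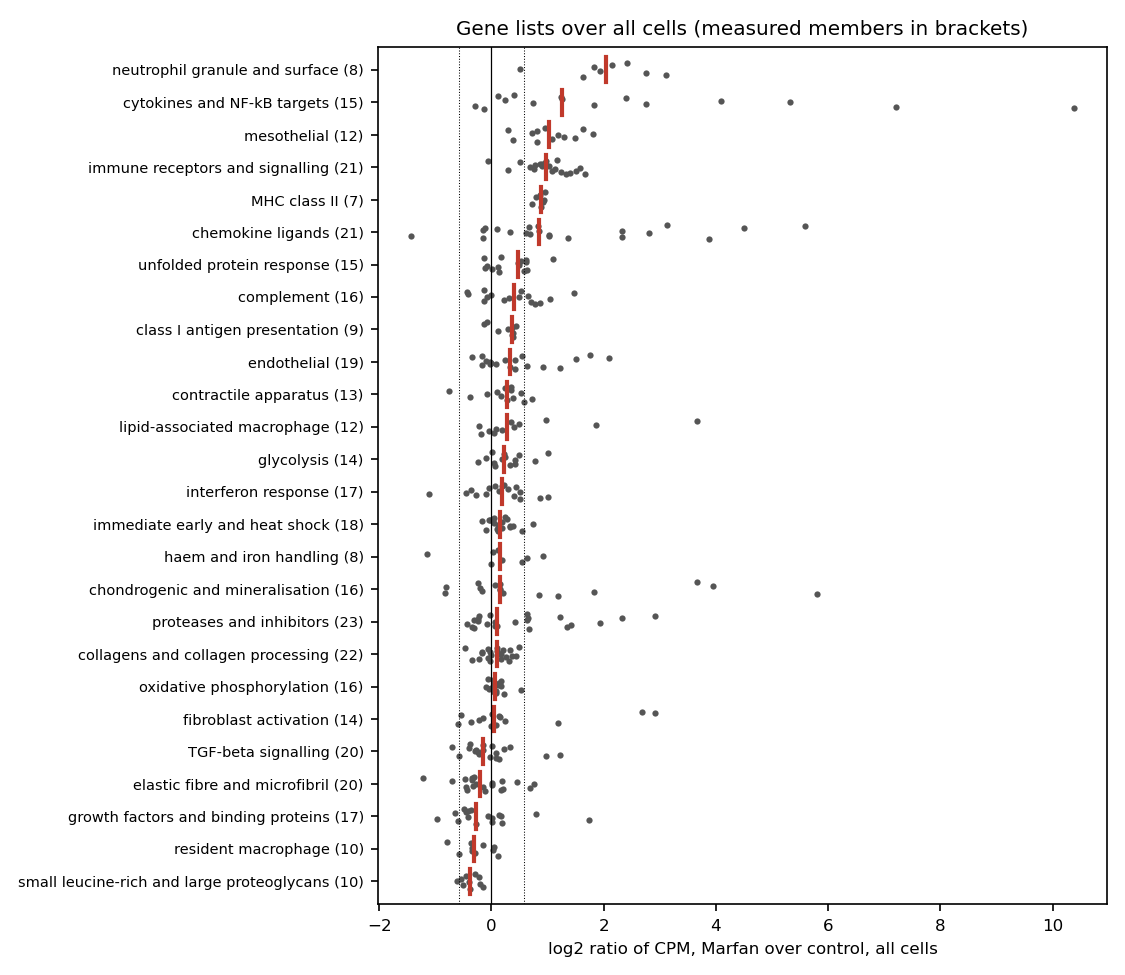
For each of 26 gene lists, the log2 ratio of Marfan over control over all cells of each measured member (points) and the list's median (red bar); dotted lines mark 1.5-fold. Medians of neutrophil, cytokine, mesothelial, immune receptor, MHC class II and chemokine genes lie beyond the line on the Marfan side, and collagen and oxidative phosphorylation genes lie within the lines.

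The same measures within a class set the level in a kind of cell beside the level over all cells. In fibroblast-like cells 10230 genes were measured, of which 306 (2.99%) were at least 1.5-fold higher and 407 (3.98%) lower in Marfan. The median log2 ratio was -0.10, and with median-of-ratios scaling 399 were higher and 263 lower. The largest clusters of the class were cluster 0 (22.3% of its cells) and cluster 5 (16.5%) in Marfan, and cluster 1 (17.9%) and cluster 0 (16.1%) in control. Tyrobp stood at 14.5 CPM in Marfan against 8.63 CPM in control fibroblast-like cells, far under its level in macrophage or monocyte-like cells. Dcn stood at 14100 and 18290 CPM, a log2 ratio of -0.38, so its lower level over all cells was also seen within the class. Without the 238-cell cluster the log2 ratio was -0.21, and in valve interstitial or chondrocyte-like cells Dcn was higher in Marfan (17430 and 16230 CPM). In fibroblast-like cells, other genes were as follows. Fbn1 stood at 282 and 226 CPM, a log2 ratio of 0.32, Klf4 at 252 and 240 CPM, and Tgfb3 at 59.5 and 96.9 CPM. Mfap4 was again lower, with a log2 ratio of -0.89.

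Chemokine and cytokine genes differed between the fibroblast-like cells of the libraries. Of 19 measured chemokine genes 14 were higher and none lower, with a median of 2.08, and of 10 cytokine and NF-kB target genes 7 were higher and none lower, with a median of 1.37. Spp1 stood at 2583 CPM in Marfan against 16.4 CPM in control, Il6 at 467 and 4.40 CPM, Hp at 204 and 1.74 CPM, and Ccl2 at 1190 and 87.6 CPM. The cluster of 238 cells was the source of much of this. Without it, the log2 ratio was 4.51 for Spp1 in place of 7.30, 2.26 for Il6 in place of 6.73, 4.77 for Hp in place of 6.87, 0.74 for Ccl2 in place of 3.77, 1.01 for Ccl7 in place of 5.05 and 0.94 for Timp1 in place of 3.39. The remaining fibroblast-like cells had 11 of 18 chemokine genes higher and 1 lower (median 0.77) and 3 of 7 cytokine genes higher (median 0.18), beside 1.63% of all genes higher and 2.16% lower. The summed macrophage markers in fibroblast-like cells were 312 CPM in Marfan, or 236 CPM without the cluster, and 130 CPM in control, with 8 of 9 measured at least 1.5-fold higher, and their part in these values was not tested.

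Fibroblast-like cells also differed in matrix, secretory and interferon genes. Of 14 fibroblast activation genes 4 were higher, with log2 ratios of 3.55 for Tnc (tenascin-C), 1.67 for Cthrc1 and 1.21 for Fn1 (fibronectin) beside Timp1. Leaving out the 238-cell cluster gave 1.26 for Tnc, 0.94 for Cthrc1 and 0.73 for Fn1. Of 22 collagen genes 3 were higher, Serpinh1, Col4a1 and Col4a2, and Serpinh1 dropped under 1.5-fold without the cluster, to 0.51. Elastic fibre and microfibril genes had 4 higher and 1 lower of 20, with log2 ratios of 1.19 for Lox and 0.72 for Emilin2, and 1 higher and 1 lower of 20 without the cluster, where Lox was at 0.35. Of 20 proteases and inhibitors 8 were higher and none lower, among them Adamts4 (1.77) and Adamts1 (1.09). Without the cluster 5 of 18 were higher, with Adamts4 at 0.72 and Adamts1 at 0.21. Of 15 unfolded protein response genes 6 were higher, with a median of 0.58, and 1 without the 238-cell cluster. Of 17 interferon response genes 2 were higher, Ifi203 (1.23) and Ifi204 (1.11), and 4 lower, Ifit2 (-1.75), Mx1 (-1.38), Rsad2 (-1.18) and Ifit3 (-0.63), with a median of -0.21. Without the 238-cell cluster, 7 of these 17 were lower. A fibroblast-like cluster led by Cxcl10 and Ifit genes held 103 Marfan and 162 control cells, and its part in this was not tested. Among the genes with the smallest ratios in the class, Ifit2 stood at 41.1 CPM in Marfan against 138 CPM in control, the nucleotide kinase gene Cmpk2 at 23.3 and 58.4 CPM, Angptl7 at 77.1 and 189 CPM, Tmem132c at 9.85 and 26.2 CPM, Ces1d at 21.7 and 52.4 CPM and Col6a6 at 15.2 and 35.9 CPM.

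In macrophage or monocyte-like cells 9433 genes were measured, of which 474 (5.02%) were higher and 997 (10.6%) lower in Marfan, with 623 higher and 723 lower under median-of-ratios scaling. The make-up of the class differed between the libraries. Cluster 4, led by Cd72, Rgs1 and MHC class II genes, held 58.2% of the class in Marfan and 36.0% in control, and cluster 8, led by Folr2, Cd163 and Lyve1, held 25.6% in Marfan and 63.7% in control. The cluster led by Arg1, Ly6c2 and Chil3 held the other 16.2% of the class in Marfan. Tyrobp stood at 2408 CPM in Marfan against 1856 CPM in control, a log2 ratio of 0.38, which was smaller than over all cells.

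The largest ratios of the class included those of Ly6c2 and Plac8, both of them in the marker set that named the class. Ly6c2 stood at 222 CPM in Marfan against 1.57 CPM in control, Slfn4 at 89.9 and 2.69 CPM, Plac8 at 344 and 17.0 CPM, Spp1 at 518 and 31.6 CPM, the leukotriene B4 receptor gene Ltb4r1 at 27.2 and 2.24 CPM, and Sirpb1c at 44.0 and 4.93 CPM. Without the cluster led by Arg1 these log2 ratios were 5.22 for Ly6c2 in place of 7.15, 2.50 for Slfn4 in place of 5.06, 0.95 for Plac8 in place of 4.34, 2.04 for Spp1 in place of 4.04, 1.11 for Ltb4r1 in place of 3.60 and 2.01 for Sirpb1c in place of 3.16. All 6 stayed above 1.5-fold there, but at clustering resolution 0.5 the log2 ratios of Plac8 and Ltb4r1 were 0.11 and 0.20. All 10 resident macrophage genes were lower in Marfan, with a median of -1.06, and so were Lyz1 (30.2 CPM in Marfan against 211 CPM in control), the eosinophil chemokine gene Ccl24 (45.7 and 220 CPM), Slc40a1 (5.02 and 29.6 CPM) and the phospholipase gene Pla2g2d (23.5 and 90.7 CPM). The picture within the clusters was different. Within cluster 8 none of the 10 resident macrophage genes passed 1.5-fold (median 0.10), and within cluster 4 5 of 9 were higher and 1 lower (median 0.70). The choice to look within clusters 4 and 8 was made after their values were seen.

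Of 12 lipid-associated macrophage genes 4 were higher in the class, Spp1, Gpnmb (2.01), the fatty acid binding protein gene Fabp5 (1.72) and Lgals3 (1.21). Of 14 glycolysis genes 5 were higher, led by the glucose transporter gene Slc2a1 (1.72), and 3 of 8 haem and iron genes were lower. Only 2 of 21 immune receptor genes were higher, Ccr2 (1.70) and Fcgr1 (0.85), against 18 over all cells. Of 13 cytokine and NF-kB target genes 5 were higher, among them Il1rn (1.47), Osm (1.38) and Il1b (0.66), and 2 lower, Il1a (-1.32) and Tnf (-0.80). Chemokine genes split, with 4 higher, led by Cxcl9 (2.71), and 4 lower of 19. The summed fibroblast markers in the class stood at 1332 CPM in Marfan against 1911 CPM in control and the neutrophil markers at 129 and 73.9 CPM, and their part in these values was not tested.

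Interferon response genes ran in opposite directions in the main macrophage clusters. Over the class 9 of 17 were higher and none lower, with a median of 0.65. In cluster 8 (328 Marfan and 253 control cells) 15 of 17 were higher, with a median of 1.32, beside 4.87% of all 9556 genes measured there. The antiviral genes Ifit3 stood at 121 CPM in Marfan against 20.9 CPM in control, Rsad2 at 80.1 and 16.1 CPM, Ifit1 at 57.5 and 12.7 CPM, and Isg15 at 234 and 55.8 CPM. In cluster 4 (747 Marfan and 143 control cells) 9 of 17 were lower and 1 higher, with a median of -0.66, beside 5.53% of all 9138 genes lower and 11.2% higher, or 638 lower and 809 higher under median-of-ratios scaling. Isg15 had a log2 ratio of -1.21 there, Cmpk2 stood at 15.3 and 53.3 CPM, and Ifit3b at 19.6 and 58.5 CPM. The difference between the clusters was not tested.

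Cluster 4 held other differences. Mcemp1, of mast cells and macrophages, had 208 UMIs in Marfan and 3 in control, a log2 ratio of 3.74 (2.18 to 6.03). Ccl7 stood at 608 CPM in Marfan against 137 CPM in control, Fabp5 at 91.3 and 17.5 CPM, and the integrin gene Itgb7 at 24.5 and 5.85 CPM. Lower were the macrophage elastase gene Mmp12 (76.0 and 292 CPM), Mmp13 (29.98 and 125 CPM), Il1a (26.7 and 106 CPM) and Cd207, the lectin langerin of some dendritic cells (8.28 and 29.2 CPM). In cluster 8, 8.12% of genes were lower, among them the matrix genes Fn1 (75.2 CPM in Marfan against 541 CPM in control), Thbs1 (37.0 and 169 CPM) and Igfbp5 (15.3 and 83.9 CPM), while the fibroblast marker sum stood at 1498 and 2263 CPM, and its part was not tested. Without the highest doublet scores the log2 ratio of Igfbp5 was -0.89 in place of -2.46. Lyz1 was lower in cluster 8 as well, at 81.9 CPM in Marfan against 316 CPM in control.

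**Figure D5:**
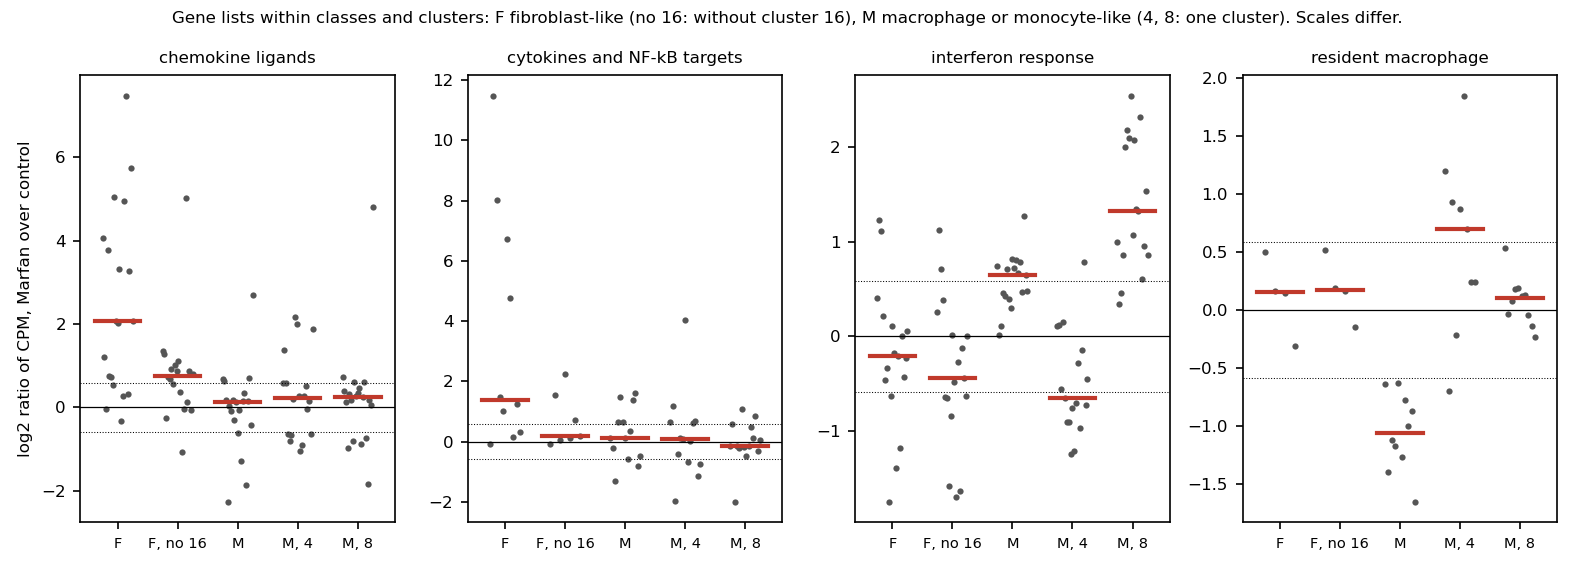
Log2 ratio of Marfan over control of each measured gene (points) and the median (red bar) of 4 gene lists, within fibroblast-like cells (F), the same without the 238-cell cluster (F, no 16), macrophage or monocyte-like cells (M) and their clusters 4 and 8; dotted lines mark 1.5-fold, and the vertical scale differs between panels. Interferon response genes had medians of 1.32 in cluster 8 and -0.66 in cluster 4, and chemokine genes 2.08 in fibroblast-like cells and 0.77 without the 238-cell cluster.

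Valve interstitial or chondrocyte-like cells (368 Marfan and 273 control) had 501 of 10208 genes higher (4.91%) and 914 lower (8.95%). Cartilage and bone genes were higher within them: 9 of 16 chondrogenic and mineralisation genes were higher in Marfan and 1 lower, with a median of 0.68. Bglap (osteocalcin) had 418 UMIs in Marfan and 1 in control, a log2 ratio of 8.08 (5.60 to 13.39), and was found in 1.90% of the Marfan cells of the class, so this ratio rests on very few cells. The phosphatase gene Alpl had 101 and 3 UMIs, a log2 ratio of 4.45 (2.86 to 6.75). The log2 ratio of Ibsp was 2.71, and Col2a1, the cartilage collagen gene, stood at 110 CPM in Marfan against 27.6 CPM in control. Spp1 stood at 3514 and 1917 CPM. Col9a3, another cartilage collagen gene, stood at 34.3 and 10.2 CPM. Lgals3 (73.0 and 14.7 CPM), Il1b (21.0 and 3.07 CPM) and Ccl2 (23.7 and 5.46 CPM) were also higher, while the macrophage marker sum in these cells was 250 CPM in Marfan against 128 CPM in control, and its part was not tested. Lower were Sost, the secreted Wnt inhibitor sclerostin (17.3 and 69.9 CPM), Lgr6 (6.42 and 28.3 CPM), Hlf (8.85 and 40.6 CPM), Rflna (9.73 and 42.3 CPM) and Apod (24.8 and 79.1 CPM). Of 20 elastic fibre genes 5 were lower and 1 higher, with log2 ratios of -1.57 for Mfap4 and -0.84 for Eln (elastin), and Fbn1 stood at 207 and 255 CPM.

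Blood endothelial-like cells (198 Marfan and 118 control) had 1136 of 10704 genes higher (10.6%) and 2606 lower (24.3%), with a median log2 ratio of -0.18. Median-of-ratios scaling gave 1628 higher and 1827 lower. Pecam1 stood at 1691 CPM in Marfan against 1206 CPM in control, a log2 ratio of 0.49. Higher in Marfan were, with log2 ratios of 2.57, 2.19 and 1.75, Edn1 (endothelin-1), the leukocyte ligand gene Icam1 and Vwf, and the VEGF receptor gene Kdr was lower (-1.12). In all, 7 of 20 endothelial genes were higher and 2 lower. Of 16 interferon response genes 11 were lower, with a median of -0.95. The Wnt antagonist gene Sfrp1 stood at 600.0 CPM in Marfan against 45.2 CPM in control, and Tmem252 at 71.8 and 4.31 CPM. The growth factor gene Gdf6 had 99 UMIs in Marfan and 1 in control, a ratio of 51.2 with a log2 interval of 3.17 to 10.995, and the transcription factor gene Isl1 had 61 and 1. Lower were the tight junction gene Cldn11 (3.90 and 61.4 CPM) and the water channel gene Aqp8 (2.78 and 48.5 CPM), and Gata5, a cardiac and endocardial transcription factor, had 3 UMIs in Marfan and 22 in control. Immune receptor genes were higher here too, 16 of 18. The macrophage marker sum was 729 CPM in Marfan against 128 CPM in control, and the SMC marker sum 645 and 147 CPM. Valve interstitial or chondrocyte markers summed to 3543 and 2086 CPM, fibroblast markers to 3048 and 4933 CPM and lymphatic markers to 42.9 and 155 CPM. The part of these sums in the ratios of the class was not tested. Leaving out the cells with the highest doublet scores removed 22 Marfan and 6 control cells of the class, and the log2 ratio of Tyrobp there dropped to 2.40, in place of 4.36.

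SMC-like cells, those that entered the lineage-negative gate, numbered 155 in Marfan and 86 in control. There, 1114 of 10122 genes were higher (11.0%) and 1305 lower (12.9%). Tnc had 121 UMIs in Marfan and 2 in control, Spp1 stood at 119 and 4.92 CPM, and Ccl2 at 57.5 and 6.88 CPM. Over all Marfan cells, 62.5% of the Tnc, 71.4% of the Spp1 and 64.7% of the Ccl2 UMIs lay in the 238-cell cluster. The part of that cluster in the SMC-like values was not tested. The macrophage marker sum in SMC-like cells was 653 CPM in Marfan against 207 CPM in control, with 11 of 13 at least 1.5-fold higher, and its part was not tested. Klf4 stood at 95.5 and 42.3 CPM, a log2 ratio of 1.18, and Myh11 at 1767 and 1901 CPM. With each cell counted alike, the log2 ratios of Tnc and Spp1 were 2.18 and 2.35 in place of 4.84 and 4.60. The potassium channel gene Kcnj15 was lower, at 16.2 and 83.6 CPM. Lymphatic endothelial-like cells (192 Marfan and 68 control) had 1746 of 10540 genes higher (16.6%) and 1735 lower (16.5%). Pecam1 stood at 640.4 CPM in Marfan against 707 CPM in control lymphatic cells. Their largest ratios were those of the stromal genes Prg4 (205 and 18.3 CPM), Ccdc80 (226 and 23.5 CPM) and Mmp3 (124 and 13.04 CPM), and Dcn stood at 2360 and 929 CPM beside them. Fibroblast markers in these cells summed to 3493 CPM in Marfan against 1510 CPM in control, and lymphatic markers to 5632 and 10400 CPM. The part of these sums was not tested. With the highest doublet scores left out, the log2 ratio of Mmp3 there was 0.60 in place of 3.25. In mesothelial-like cells (67 Marfan and 14 control) Msln stood at 976 CPM in Marfan against 1625 CPM in control, so it was lower within the cells captured. The control value rests on 14 cells, under the minimum of 50 cells per library used for the other classes. Among the highest doublet scores were 15 Marfan and 0 control cells of this class.

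The Marfan library with the floxed Klf4 allele shares its control with the comparison above, and its values are given side by side only. Tyrobp stood at 494 CPM in Marfan, 303 CPM in Klf4-floxed Marfan and 221 CPM in control cells. Dcn stood at 10690, 13710 and 15230 CPM, Msln at 14.8, 14.5 and 8.49 CPM, and Pecam1 at 61.3, 64.9 and 45.6 CPM, in the same order. For Tyrobp and Dcn the Klf4-floxed library lay between the other 2. Il11 stood at 214, 1.59 and 1.44 CPM, Il6 at 279, 15.4 and 6.94 CPM, and Spp1 at 1846, 394 and 145 CPM. S100a9 stood at 278, 15.03 and 52.3 CPM, and Chgb at 0.075, 44.4 and 46.2 CPM. In the Klf4-floxed library Il11 was thus near the control level, and Il6 and Spp1 lay between the other 2. Mfap4 stood at 247, 291 and 577 CPM and Jchain at 22.7, 127 and 0.086 CPM, so these 2 differed from control in both Marfan libraries.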

How the data were processed

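Whole-number UMI counts per gene and cell barcode were deposited as matrices, made with Cell Ranger 6.1.2 per the file headers. The submitters' processing notes name the build mm10. Annotation and barcode calling: not given in the sources used here. Groups came from the sample titles. Counts were summed per library and scaled to CPM, with exact Poisson, conditional binomial, Clopper-Pearson or Newcombe 95% intervals. A gene was called at 1.5-fold among genes with 5 CPM or more in either library, and the calculation was tested on simulated counts. Cells were clustered with scanpy 1.11.5 and leidenalg 0.10.2 (2000 variable genes, 30 components, 15 neighbours, resolution 1, no integration) in python 3.11.15, with numpy 2.4.6, scipy 1.17.1 and pandas 2.3.3. A cluster was named where it had at least 50 cells, 3 or more of its markers in at least 10% of cells, and 10 leading genes that did not go against the name; part of these conditions was set after seeing the data. Doublets stayed in: Scrublet marked 0.99% of Marfan and 0.02% of control cells, so its calls were not used.

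Named genes were the 15 largest and 15 smallest ratios over all cells (at least 20 CPM and 1% of cells in the higher library), the 6 largest and smallest per class (20 CPM, 10% of cells), 11 genes set by hand, and list members with the highest levels or most extreme ratios; a few others, and a choice among these, were picked after their values were seen. The members, marker sets and the 26 gene lists were chosen with earlier results of these data known. A few genes are not reported here. Alternatives changed the cell filters, scaling, thinning, resolution, fold and CPM minimum, or left out doublets or clusters.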

Additional observations from a re-analysis of the deposited data

Results flagged for a closer look

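For 6 genes the ratio of Marfan over control had opposite directions, each at least 1.5-fold, in fibroblast-like and in macrophage or monocyte-like cells. With 1 library per group the difference between the classes was not tested. Cxcl1, a neutrophil attractant, had a log2 ratio of 3.31 in fibroblast-like cells (720 CPM in Marfan and 72.5 CPM in control) and -1.27 in macrophage or monocyte-like cells (144 and 349 CPM). The metallothionein gene Mt2 had 2.36 (900.4 and 176 CPM) and -0.61 (110.0 and 168 CPM). The monocyte attractant gene Ccl8 had 2.08 (26.4 and 6.24 CPM) and -0.60 (672 and 1019 CPM). Prg4, the lubricin gene, had 0.76 (1435 and 845 CPM) and -1.86 (64.9 and 235 CPM). Fn1 had 1.21 (190 and 81.9 CPM) and -1.39 (149 and 389 CPM). At clustering resolution 2 the macrophage or monocyte-like ratio of Fn1 was 1.16, so its directions were then not opposite. Tnfaip2 had 0.92 (38.03 and 20.1 CPM) and -0.95 (69.1 and 133 CPM). Without the 238-cell cluster, the fibroblast-like ratios of Cxcl1 and Mt2 were 0.38 and 0.50, under 1.5-fold, and that of Ccl8 was 0.87.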

How the results depend on the processing

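No paired analysis was possible because each group was 1 library without replicate numbers. The log2 ratio of Tyrobp over all cells was 1.09 with at least 4000 UMIs per cell, 1.25 with median-of-ratios scaling, 1.61 with each cell counted alike, 1.27 without the 238-cell cluster, 1.11 without neutrophil-like cells and 1.06 without the clusters in which at least 50% of cells held Tyrobp. That of Pecam1 was 0.52 at 4000 UMIs, 0.52 with median-of-ratios scaling, 0.54 without the 238-cell cluster and 0.58 without the Tyrobp clusters. That of Dcn was -0.53 at 5% mitochondrial UMIs, -0.50 without the highest doublet scores, -0.53 with mitochondrial and ribosomal genes out of the total, -0.42 with median-of-ratios scaling, -0.49 with each cell alike, -0.42 without the 238-cell cluster, -0.50 without neutrophil-like cells and -0.37 without the Tyrobp clusters. Of genes over all cells, 322 were higher and 198 lower at 20 CPM, 1491 and 1567 with no CPM minimum, 258 and 88 at 2-fold, 305 lower with median-of-ratios scaling, and 340 and 284 without the Tyrobp clusters. At 20 CPM the higher and lower genes were 372 and 479 in SMC-like, 495 and 1429 in endothelial-like, 189 and 157 in fibroblast-like, 883 and 847 in lymphatic, 233 and 423 in macrophage or monocyte-like and 177 and 278 in valve interstitial or chondrocyte-like cells, 292 and 149 in cluster 4 and 144 and 197 in cluster 8. With each cell alike, 1974 were lower in SMC-like cells and 762 in cluster 4. In fibroblast-like cells 263 were lower with median-of-ratios scaling, and 167 were higher and 221 lower without the 238-cell cluster. The share difference of Dcn was -8.05 points at 5000 UMIs and -14.9 with 2 UMIs required, and that of Msln 0.66 at 5000 UMIs. The share difference of fibroblast-like cells was -14.5 points at resolution 0.5, -11.7 at resolution 2 and -4.08 with each library clustered alone. That of macrophage or monocyte-like cells was 6.17 at resolution 0.5. With each library alone, those of dendritic-like and mesothelial-like cells were 1.48 and 0.94. In that setting 0 control cells had either name, against 30 and 14 in the joint clustering, so these values are the Marfan shares only. Sign reversals were listed only for genes at least 1.5-fold different in the main setting. Signs of these reversed without the 238-cell cluster for Il33 (-0.19), Inhba (-0.019) and, within fibroblast-like cells, Cxcl5 (-0.061). They reversed without the Tyrobp clusters for Timd4 (0.37), Cd74 (-0.22) and H2-Eb1 (-0.18), and at resolution 2 for Fn1 in macrophage or monocyte-like cells (1.16). With smaller ratios included, 98 of 103 named genes over all cells kept their sign without the 238-cell cluster. The number was 99 of 103 without the Tyrobp clusters, and 99 of 103 with each cell counted alike. Apart from the exclusion of genes, cells or clusters that an alternative itself makes, the cause was not tested. Settings that leave out clusters were chosen after seeing the data. These checks were counted for Tyrobp, Pecam1, Dcn and Msln, for class shares and for counts of genes. In 186 of them the value stayed within its counting interval or within 1.5 times the count, and in 57 it did not. In the checks of ratios of the other named genes, 1961 stayed within the interval, 642 moved outside it and 7 reversed. The depth limits classes under 100 cells in a library, in which the intervals are wide, and 1 library per group leaves the spread between animals unknown.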
